A study of Mus musculus with 33 samples.

Results

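The nuclear-encoded genes of oxidative phosphorylation were followed in 33 bulk RNA-seq samples of liver and lung macrophages (macs). Members were the genes whose symbol begins with Nduf, Uqcr, Atp5 or one of Cox4, Cox5, Cox6, Cox7 and Cox8, the 4 genes *Sdha*, *Sdhb*, *Sdhc* and *Sdhd*, and *Cyc1* and *Cycs*. This rule used names and no measured value, and it found 94 of the 24421 genes counted. They were 36 genes of complex I, 7 complex I assembly factors, 4 genes of complex II, 9 of complex III with *Cyc1* among them, cytochrome c (*Cycs*), 18 of complex IV, *Ndufa4* and its paralog *Ndufa4l2*, and 15 of complex V. The remaining 2, *Atp5s* and *Atp5sl*, carry the Atp5 name without encoding a core subunit of the ATP synthase.

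Oxidative phosphorylation takes place in the inner mitochondrial membrane. Complex I takes electrons from NADH and complex II takes them from succinate, complex III and cytochrome c pass them to complex IV, which reduces oxygen, and the proton gradient built on the way drives ATP synthesis by complex V. Macs draw on this chain to different degrees, and activated macs are known for remodelling it together with glycolysis. Subunits encoded by mitochondrial DNA, which complexes I, III, IV and V also need, could not be analysed here. No symbol starting with mt- was among the genes counted.

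All mice carried floxed alleles of *Zeb2*, which encodes a zinc finger transcription factor, on a C57Bl/6 background, and were aged 6 to 8 weeks. Per the study's methods mice of both sexes were used. CRE- Kupffer cells (KCs, the resident macs of the liver, n = 6) and CRE- alveolar macs (AMs, the resident macs of the lung airspace, n = 5) came from *Zeb2* fl/fl mice. In the liver, *Clec4f-cre* x *Zeb2* fl/fl mice gave Tim4+ CRE+ KCs (n = 6) and Tim4- CRE+ KCs (n = 6). In the lung, *Itgax-cre* x *Zeb2* fl/fl mice gave CD11b- CRE+ AMs (n = 5) and CD11b+ CRE+ AMs (n = 5). *Clec4f-cre* also marks a small population of B cells, *Itgax-cre* acts in CD11c+ cells in general, and the groups were sorted on Tim4 or CD11b after the deletion, so that each pair of CRE+ groups was defined by a surface protein as well as by the genotype of the mice. The paper found cells heterozygous for the deletion among KCs and AMs of CRE+ mice, beside cells that had deleted *Zeb2*. Their shares in the CRE+ groups here were not measured. The labels do not say whether samples of a group came from separate mice, and p-values therefore measure the spread between these samples, which may be technical.

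Libraries held 9837240 to 24332306 gene counts (median 20683608), and the shallowest library was Tim4- replicate 1. Levels are given as CPM, read counts scaled to library size, with TMM factors, a correction by trimmed means of ratios between libraries. *Zeb2* itself was at 283 ± 38.7 CPM (SD, n = 6) in CRE- KCs, 175 ± 25.9 in Tim4+ and 170 ± 16.3 in Tim4- CRE+ KCs, and at 194 ± 16.3 (SD, n = 5) in CRE- AMs, 105 ± 11.9 in CD11b- and 62.1 ± 7.88 in CD11b+ CRE+ AMs. It was lower in each CRE+ group than in the CRE- group of its tissue. The floxed allele still gives a shortened transcript and heterozygous cells keep a copy, so that *Zeb2* counts check the deletion only in part. The 8 KC markers summed to between 23948 and 26045 CPM in CRE- KCs and to between 85.6 and 115 in CRE- AMs, and the 10 AM markers to between 392 and 1226 and between 20186 and 30584. Replicates 5 and 6 of each KC group stood apart, with the Y-linked *Ddx3y* at 64.7 to 76.2 CPM and *Xist* at 0, whereas in replicates 1 to 4 *Ddx3y* was at most 0.129 CPM and *Xist* at least 11.0 CPM, and the comparisons of Tim4- KCs below are also given within these sets of replicates. In all 15 AM samples *Ddx3y* was at most 0.0527 CPM and *Xist* at least 13.2 CPM, so that the sexes by these genes were mixed in the KC groups and not in the AM groups, and comparisons across the tissues are also given with KC replicates 1 to 4.

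Of the 94 members, 87 had a count in every sample. No read was counted for *Cox7b2* and *Cox8c*, 1 read for *Cox8b*, 45 for *Ndufa4l2* and 116 for *Ndufs5* over all samples, and these 5 passed the filter on low counts in no comparison. *Ndufs5* encodes an accessory subunit of complex I, and since reads that it shares with other loci may not have been counted, which was not tested, no level is read from its counts. *Cox7b2*, *Cox8b* and *Cox8c* encode forms of complex IV subunits known from testis or muscle. Between 87 and 89 members were tested in each comparison.

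Members took 0.941% ± 0.093 (SD, n = 6) of all reads counted on genes in CRE- KCs, 0.999% ± 0.061 in Tim4+ and 1.094% ± 0.148 in Tim4- CRE+ KCs. In AMs they took 1.163% ± 0.045 (SD, n = 5) in the CRE- group, 1.227% ± 0.039 in the CD11b- group and 0.903% ± 0.022 in the CD11b+ group. The CD11b+ AM samples, between 0.87% and 0.925%, all lay below the other AM samples. These shares take no TMM factors. With TMM factors members summed to 10112 ± 321 CPM in CD11b+, 11341 ± 428 in CRE- and 12164 ± 481 in CD11b- AMs (SD, n = 5). In CRE- KCs the sum was 9177 ± 734 CPM (SD, n = 6), so that CD11b+ AMs lay below CRE- KCs by share and above them with TMM factors. In sorted bulk samples, fewer cells that express a gene and less RNA of it per cell cannot be told apart.

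Per kilobase of the longest annotated transcript, the order of the members over all samples was led by *Atp5b* at 545 CPM per kilobase, *Cox4i1* at 489, *Cox6a1* at 335, *Cox8a* at 312 and *Atp5a1* at 307. *Atp5b* and *Atp5a1* encode the beta and alpha subunits of the catalytic head of complex V, and *Cox4i1*, *Cox6a1* and *Cox8a* encode the ubiquitous forms of 3 complex IV subunits. Below them came *Atp5g3* at 274, *Cox6b1* at 260 and, for complexes III and II, *Uqcrb* at 232 and *Sdhd* at 229 CPM per kilobase.

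**Figure D1:**
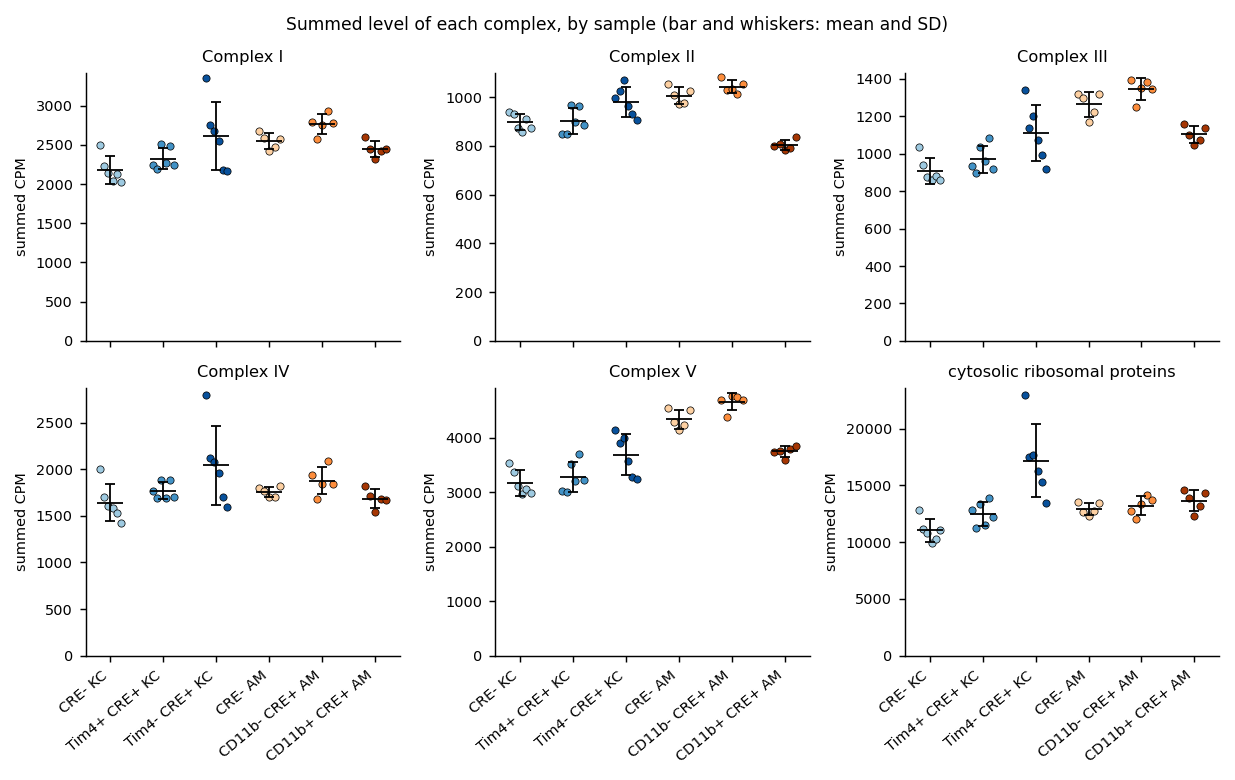
Summed level of the members of complexes I to V and, for comparison, of the cytosolic ribosomal proteins, in CPM with TMM factors (y axes) in each sample (points) of the 6 groups (x axes), with bars and whiskers for the mean and SD. The CD11b+ AM samples sit lowest among AMs for complex II, between 785 and 837 CPM, and Tim4- KCs spread most widely, from 13418 to 22928 CPM for the ribosomal proteins.

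CRE- KCs were first compared with CRE- AMs, to set the level of the chain in the 2 macs without the deletion. Members were lower in KCs far more often than higher. Of 87 members tested, 39 were lower in KCs and 2 were higher (edgeR's quasi-likelihood test, adjusted p under 0.05), whereas among all genes tested 29.9% were lower and 33.3% higher, and the median log2 fold change of KCs over AMs was -0.21 for members and 0.03 for all genes. The samples of the 2 groups did not overlap for 27 members that were lower and 2 that were higher in every KC sample, compared with 23.3% and 25.4% of all genes. With KC replicates 1 to 4 alone, 32 members were lower and 4 higher, compared with 28.2% and 30.7% of all genes, and the median was -0.15. The cytosolic ribosomal proteins were lower in KCs too, with 44 of 85 genes lower, 3 higher and a median of -0.22. All 8 liver endothelial markers were higher in CRE- KCs, where they summed to between 679 and 1927 CPM against 2.79 to 4.64 in CRE- AMs. The 8 hepatocyte markers summed to between 2146 and 3084 CPM in CRE- KCs and 3122 and 3793 CPM in CRE- AMs, most of it from *Trf*, which macs also express, while *Alb*, which encodes albumin, was at 111 ± 43.3 CPM (SD, n = 6) in CRE- KCs and 0.0708 ± 0.158 (SD, n = 5) in CRE- AMs. The part of such cells in the members' difference was not tested.

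By role, 14 of 35 complex I genes were lower in KCs, 3 of 7 assembly factors, 1 of 4 complex II genes, 4 of 9 complex III genes, 8 of 13 complex IV genes and 8 of 15 complex V genes, besides *Atp5sl*. *Ndufv1*, the subunit of complex I that binds NADH, ranged from 74.1 to 90.2 CPM with a median of 78.0 in CRE- KCs and had 162, 171, 144, 145 and 174 CPM in the CRE- AM samples. Its groups did not overlap and its log2 fold change was -0.98 (SE 0.0774, adjusted p = 4.9e-08). *Uqcrfs1*, the Rieske iron-sulfur protein of complex III, ranged from 85.9 to 100 CPM with a median of 89.8 in KCs and had 189, 190, 161, 170 and 171 CPM in AMs. The groups did not overlap, and its log2 fold change was -0.94 (SE 0.066, adjusted p = 1.29e-08). Other subunits of complex III were lower as well, with log2 fold changes of -0.69 for the core protein gene *Uqcrc1* (adjusted p = 5.24e-07) and -0.50 for *Cyc1*, which encodes cytochrome c1 (adjusted p = 4.07e-05). In complex V the catalytic *Atp5b* stood at 809 ± 51.7 CPM (SD, n = 6) in KCs and 1345 ± 68.6 (SD, n = 5) in AMs, so that the log2 fold change was -0.72 (adjusted p = 9.5e-08). The 3 genes *Atp5g1*, *Atp5g2* and *Atp5g3* encode the same mature c subunit of the membrane ring and did not move as one. *Atp5g1* (log2 fold change -0.65) and *Atp5g3* (-0.76) were lower in KCs with adjusted p of 3.94e-06 and 1.55e-06, and *Atp5g2* was at 99.6 CPM in KCs and 98.9 CPM in AMs (adjusted p = 0.841). *Sdha*, the flavoprotein of complex II, was lower in KCs (log2 fold change -0.47, adjusted p = 2.06e-06), and *Sdhb*, *Sdhc* and *Sdhd* did not pass the test.

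Both members that were higher in KCs belonged to complex IV. *Cox5a*, a subunit on the matrix side, ranged from 330 to 516 CPM with a median of 405 in KCs and had 277, 256, 253, 252 and 241 CPM in AMs, which gave a log2 difference of 0.70 (SE 0.0955, adjusted p = 1.58e-05). *Cox7a2l*, known for joining complexes III and IV into supercomplexes, was higher by 0.38 on the log2 scale (SE 0.0862, adjusted p = 0.00155). *Cox6b2*, known as the testis form of a complex IV subunit, showed the widest gap between the macs. It had 16.5, 15.3, 15.3, 16.7 and 20.7 CPM in CRE- AMs and ranged from 0.685 to 1.42 CPM with a median of 0.985 in CRE- KCs, and the log2 fold change was -4.05 (SE 0.214, adjusted p = 5.37e-10). Its ubiquitous counterpart *Cox6b1* was also lower in KCs (log2 fold change -0.33, adjusted p = 0.00213). The other tissue forms were low in both macs. *Cox7a1*, the heart and muscle form, was at 0.631 ± 0.383 CPM in KCs (SD, n = 6) and 1.72 ± 0.308 in AMs (SD, n = 5), with a log2 fold change of -1.43 (adjusted p = 0.0277), and it passed the filter on low counts only through the AM samples, where it was higher. *Cox4i2*, known from lung and from hypoxic cells, had 55 reads in the 6 CRE- KC samples, or 0.433 CPM, and 0 in the 5 CRE- AM samples. It was at least 15.2-fold higher in KCs when 3 reads over the AM group are taken as the floor (a bound that covers counting error only). *Cox4i2* did not pass the filter on low counts in this comparison and was not tested.

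**Figure D2:**
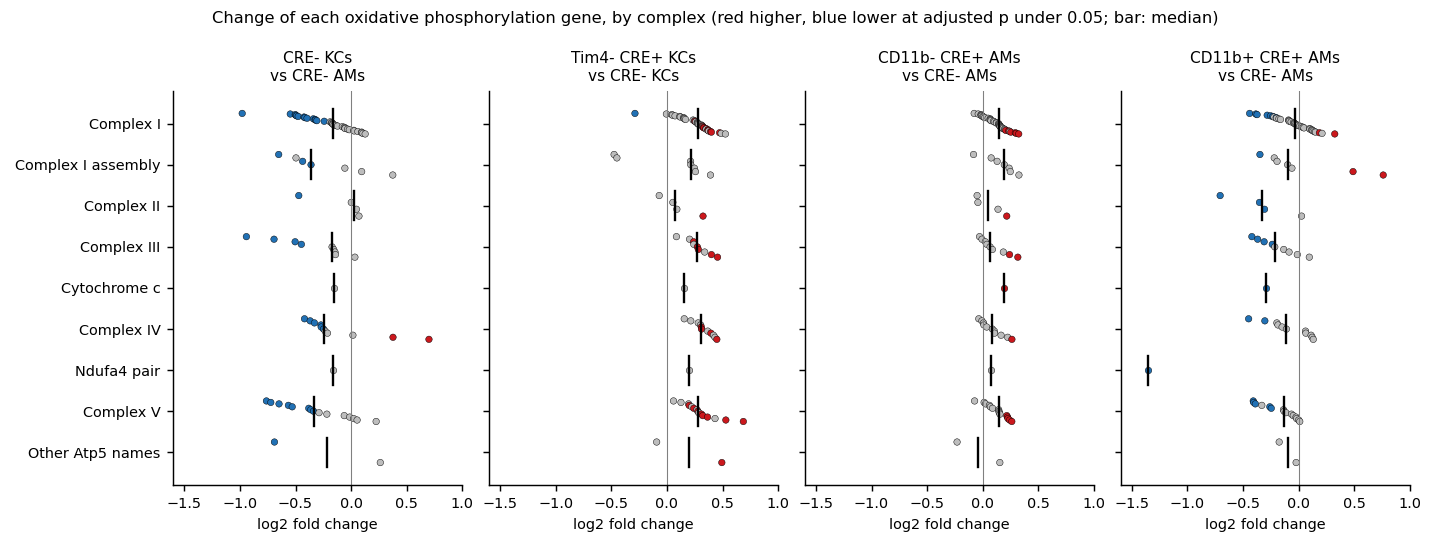
Log2 fold changes (x axes) of the members by complex (y axis) in 4 comparisons, with 1 point per member, red where higher and blue where lower at an adjusted p under 0.05, and bars at the medians. *Cox4i2*, *Cox6a2*, *Cox6b2* and *Cox7a1* are left out; points lie mostly below 0 for CRE- KCs over CRE- AMs, above 0 for Tim4- CRE+ KCs over CRE- KCs, and *Ndufa4* at -1.35 is the lowest point for CD11b+ CRE+ AMs over CRE- AMs.

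In the liver, each CRE+ group was compared with the same 6 CRE- KC samples. Tim4+ CRE+ KCs, which keep this KC surface protein, showed no member past the test. None of 88 was higher, against 3.63% of all genes, and none was lower, against 2.46% (edgeR's quasi-likelihood test, adjusted p under 0.05). At an unadjusted p under 0.05, 1 member was higher and 1 lower, compared with 9.44% and 7.87% of all genes, and limma-voom and DESeq2 called 0 members each. The median log2 fold change was 0.09, or 0.03 after subtraction of a trend on transcript length over all genes, and 73 of the 88 values were above 0. *Ndufb11*, an accessory subunit of complex I, was the only member with every Tim4+ sample above every CRE- sample, from 49.5 to 63.7 CPM against 39.1 to 49.2, at an adjusted p of 0.0912. No member lay below in every sample, and among all genes 3.11% lay above and 1.71% below.

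Tim4- CRE+ KCs differed from CRE- KCs in more members. Of 88 tested, 29 were higher, compared with 12.2% of all genes, and 1 was lower, compared with 13.2%. The median log2 fold change was 0.27 for members and -0.03 for all genes, and 79 of the 88 values were above 0. Genes that rose were found in complex I (10 of 35), complex II (1 of 4), complex III (5 of 9), complex IV (4 of 14) and complex V (8 of 15), with *Atp5sl* beside them, and in none of the 7 assembly factors. The groups did not overlap for 5 members, *Atp5d*, *Atp5sl*, *Ndufs8*, *Sdhd* and *Uqcrc1*, all above, while 5.99% of all genes lay above and 4.99% below. *Ndufs8*, an iron-sulfur subunit of complex I, ranged from 127 to 173 CPM with a median of 147 in Tim4- KCs and from 99.8 to 126 with a median of 111 in CRE- KCs (log2 fold change 0.40, SE 0.0819, adjusted p = 0.00113). *Sdhd*, a membrane anchor of complex II, ranged from 304 to 394 CPM with a median of 335, against 237 to 300 with a median of 266 (log2 fold change 0.32, SE 0.0891, adjusted p = 0.0105). *Atp5sl*, known as an assembly factor of complex I under another name, ranged from 18 to 24.2 CPM against 12.0 to 16.4 (log2 fold change 0.49, SE 0.108, adjusted p = 0.00197). The single fall was that of *Ndufs1*, the largest iron-sulfur subunit of complex I (log2 fold change -0.29, SE 0.0826, adjusted p = 0.0139).

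The largest rise in Tim4- KCs by size was that of a small subunit. *Atp5k*, the e subunit of complex V, ranged from 21.1 to 63.3 CPM with a median of 27.7 in Tim4- KCs and from 16 to 26.4 with a median of 18.2 in CRE- KCs, which gave a log2 difference of 0.69 (SE 0.212, adjusted p = 0.0215). Its highest value was that of replicate 1, and without this library the log2 fold change was 0.39 with an adjusted p of 0.0519. Other rises were those of *Atp5e* (0.53), the epsilon subunit of complex V, *Ndufb11* (0.47), *Uqcr10* (0.45) of complex III, *Cox7b* (0.45), *Cox8a* (0.40), *Cox4i1* (0.31) and *Cox7a2l* (0.31), with adjusted p between 0.00255 and 0.0437. Without Tim4- replicate 1, *Uqcr10* (0.29, adjusted p = 0.0704), *Cox7b* (0.24, adjusted p = 0.114) and *Cox4i1* (0.24, adjusted p = 0.0636) did not pass either. Over the 12 fits that left out 1 library each, the call was lost in 2 for *Atp5k*, 4 for *Uqcr10*, 5 for *Cox4i1*, 8 for *Cox7b* and 8 for *Atp5g2*, and *Cox7b* also missed the threshold with limma-voom (adjusted p = 0.0674). Of the c subunit genes, *Atp5g1* (0.32) and *Atp5g2* (0.24) were higher and *Atp5g3* was at 206 CPM against 174 CPM (adjusted p = 0.0969). The promoter of *Atp5k*, from 250 bases before to 50 after its start, is shown because it held both motifs that were searched, the core of the NRF1 motif (CGCATGCG) and that of the ETS motif (CCGGAAG), each on either strand. It lies on the minus strand of GRCm38.p6 at chr5:108434350-108434649 (sequence from RefSeq), and the capitals mark both cores, the second of them on the opposite strand.
Atp5k: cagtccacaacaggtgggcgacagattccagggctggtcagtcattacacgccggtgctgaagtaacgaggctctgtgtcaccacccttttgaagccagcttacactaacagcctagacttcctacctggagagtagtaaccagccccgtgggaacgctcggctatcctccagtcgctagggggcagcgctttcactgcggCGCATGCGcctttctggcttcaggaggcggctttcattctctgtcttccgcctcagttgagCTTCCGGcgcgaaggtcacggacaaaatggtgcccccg
Of the 94 members, 74 had a promoter in the RefSeq table. The NRF1 core was found in 12 of these, or 16.2%, and in 559 of all 27025 genes with a promoter there, expressed here or not, or 2.07%. The ETS core, which does not overlap the other in its letters, was found in 17 members, or 23.0%, and in 9.93% of all these genes. Both cores were also found for *Atp5j* (over its 2 promoters), *Atp5l*, *Cox6a1* and *Uqcr11*, so that holding both was not particular to *Atp5k*. A match describes the letters only and no binding was measured.

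Other values moved with the rise in Tim4- KCs. Of 84 cytosolic ribosomal protein genes, 77 were higher (median log2 fold change 0.63), compared with 12.2% of all genes. Their summed level was 17189 ± 3224 CPM (SD, n = 6) against 11038 ± 1010 in CRE- KCs, with Tim4- replicate 1 at 22928. The mitochondrial ribosomal proteins, which make the subunits encoded by mitochondrial DNA, had 18 of 77 genes higher and 1 lower. Among all genes 12.2% were higher and 13.2% lower. Fold changes also depended on transcript length in this comparison. The correlation of length with log2 fold change across 12430 genes was -0.23 (Spearman's rho, a description across genes, which are not independent), and in the shortest of 4 equal bins of transcripts, from 109 to 2174 bases, the median log2 fold change was 0.12 for all genes and 0.28 for the 70 members there. Subtracting the trend on length left a member median of 0.09. All 8 liver endothelial markers were lower in Tim4- KCs, where they summed to between 389 and 531 CPM against 679 to 1927 in CRE- KCs. Of the 8 KC markers, 7 were lower and 1 higher, with sums of 10581 to 12496 CPM against 23948 to 26045. Of 5 monocyte markers tested, 3 were higher and none lower, and the 6 in the files summed to a median of 820 CPM, and at most 1076, against a median of 294, and at most 373, with *Ccr2*, a chemokine receptor of monocytes, at 116 ± 35.1 CPM against 4.98 ± 2.31 (SD, n = 6) and *Ly6c2* at 0.283 ± 0.145 against 0.110 ± 0.139. The part of these cells and states, of length and of RNA quality in the members' rise was not tested. Within replicates 1 to 4, 28 members were higher and none lower, with a median log2 fold change of 0.35, where 9.04% of all genes were higher and 9.82% lower. Within replicates 5 and 6, with only 2 samples per group, none passed and the median was 0.06, where 5.31% of all genes were higher and 4.12% lower. Without Tim4- replicate 1, 19 were higher and 2 lower, with a median of 0.18, beside 12.2% and 13.6% of all genes.

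**Figure D3:**
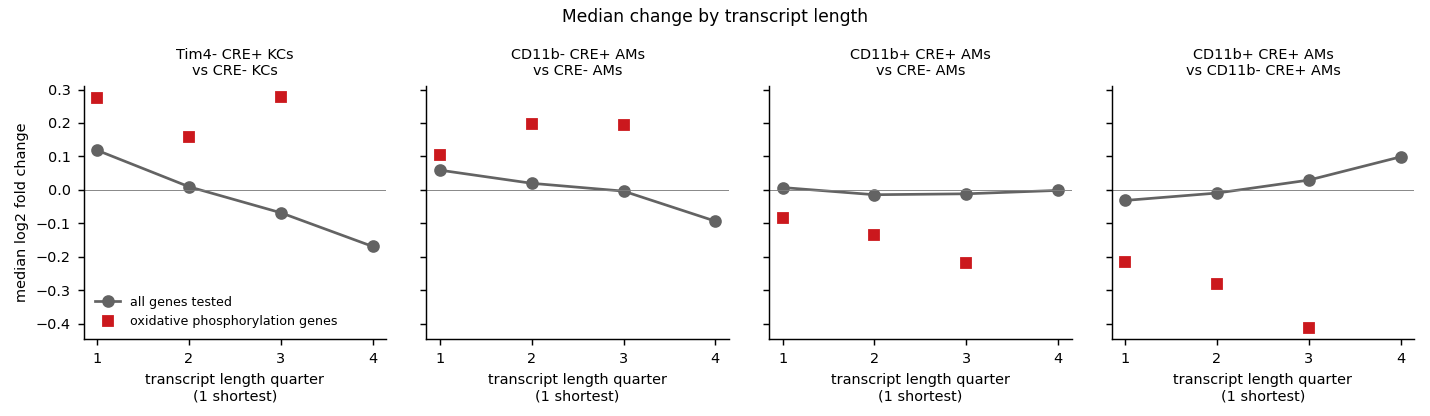
Median log2 fold change (y axes) of all tested genes and of the members in 4 equal bins of transcript length from shortest to longest (x axes) in 4 comparisons; members are drawn where a bin held at least 3 of them. In Tim4- KCs the median of all genes falls from 0.12 to -0.17 with length. In CD11b+ AMs over CRE- AMs it stays within 0.02 of 0 while the members lie below it. In CD11b+ over CD11b- AMs it rises from -0.03 to 0.10 with length, and the members lie below it there too.

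Tim4- and Tim4+ CRE+ KCs were compared directly. *Ndufs8* alone was higher in Tim4- KCs, at 149 ± 17.0 CPM against 121 ± 9.75 (SD, n = 6 each; log2 fold change 0.30, SE 0.0818, adjusted p = 0.0195), where 3.84% of all genes were higher, and no member was lower, where 7.62% of all genes were. At an unadjusted p under 0.05, 18 members were higher and 0 lower, compared with 11.1% and 13.7% of all genes, and DESeq2 called 5 members and limma-voom 3, all higher. Samples with the same replicate number deviated together in these groups, and with the number as a block 2 members passed, or 1 when only these groups were fitted. In that last fit *Ndufs8* had an adjusted p of 0.0529. The median log2 fold change of members was 0.17 in all replicates and 0.32 within replicates 1 to 4. Within replicates 5 and 6, with only 2 samples per group, it was -0.15. The SD of the member median between replicates was 0.177, so that no turn of direction is read from this value. After subtraction of the length trend the member median was 0.05 in all replicates. *Ndufs8* did not pass without Tim4+ replicate 2.

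In the lung, both CRE+ groups were compared with the same 5 CRE- AM samples. CD11b- CRE+ AMs, the fraction nearer to resident AMs in surface phenotype, had members that were higher by small amounts. Of 89 tested, 17 were higher, compared with 13.3% of all genes, and none was lower, compared with 12.4%. At an unadjusted p under 0.05, 29 were higher and 0 lower, compared with 18.7% and 18% of all genes, and DESeq2 and limma-voom also called 0 lower. The median log2 fold change was 0.12, or 0.07 after subtraction of the length trend. The 17 were 6 genes of complex I, 1 of complex II, 2 of complex III, cytochrome c, 2 of complex IV and 5 of complex V. One of the complex IV genes was *Cox4i2*, with 22 reads against 0, which passed the filter on low counts only through the CD11b+ AMs of the same fit. *Ndufb6*, an accessory subunit of complex I, had 55.8, 59.0, 54.2, 55.5 and 54.5 CPM in CRE- AMs and 74.8, 58.5, 68.9, 79.2 and 69.9 CPM in CD11b- AMs (log2 fold change 0.32, SE 0.0816, adjusted p = 0.0061). One CD11b- sample, replicate 2, lay within the range of the controls. *Ndufab1*, the mitochondrial acyl carrier protein that is also a complex I subunit, had 59.5, 55.1, 57.8, 51.9 and 53.3 CPM and then 71.1, 62.4, 73.3, 68.0 and 69.2 CPM, with no overlap (log2 fold change 0.30, SE 0.0676, adjusted p = 0.00252). *Uqcrb* (0.32), *Cox7a2* (0.26), *Atp5g3* (0.24), *Sdhc* (0.22) and *Cycs* (0.19) were among the genes of the other complexes that rose, with adjusted p between 0.0035 and 0.046, and the call of *Cycs* was lost in 6 of the 10 fits that left out 1 library each. Proliferation markers moved in the same samples, with 6 of 8 higher and summed levels of 196 to 345 CPM against 159 to 238 in CRE- AMs, and their part in the members' rise was not tested.

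In CD11b+ CRE+ AMs, more members were lower than higher. Of 89 tested, 25 were lower, compared with 20.5% of all genes, and 6 were higher, compared with 22.8%. The median log2 fold change was -0.09 for members, or -0.05 after subtraction of the length trend, and -0.01 for all genes. In complex II 3 of 4 genes were lower, followed by 4 of 9 genes of complex III, 5 of 15 of complex V, 7 of 35 of complex I and 3 of 15 of complex IV, besides 1 assembly factor, *Cycs* and *Ndufa4*. Every CD11b+ sample lay below every CRE- sample for 19 members and above for 8, compared with 13.9% and 18.6% of all genes. Factors from total counts in place of TMM would lower every gene by 0.199 in this comparison, which is more than the smallest rise given below.

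*Ndufa4* fell most. It was first assigned to complex I and is now known as a subunit of complex IV. In CRE- AMs it had 140, 131, 135, 120 and 139 CPM, and in CD11b- CRE+ AMs 145, 131, 138, 150 and 138 CPM. In CD11b+ CRE+ AMs it had 50.2, 56.6, 54.4, 48.6 and 53.2 CPM. No CD11b+ sample came near the other AM samples, and the log2 fold change was -1.35 over CRE- AMs (SE 0.0663, adjusted p = 2.5e-12) and -1.42 over CD11b- AMs (SE 0.0664, adjusted p = 9.09e-12). In KCs it had 118 ± 16.7, 127 ± 9.74 and 137 ± 39.0 CPM (SD, n = 6) in the CRE-, Tim4+ and Tim4- groups, and neither CRE+ group passed the test. The gene lies on chromosome 6 of GRCm38 from 11900292 to 11907497 on the minus strand. Its promoter at chr6:11907401-11907700 (GRCm38.p6, minus strand, RefSeq), shown because the gene had the largest fall, held neither core.
Ndufa4: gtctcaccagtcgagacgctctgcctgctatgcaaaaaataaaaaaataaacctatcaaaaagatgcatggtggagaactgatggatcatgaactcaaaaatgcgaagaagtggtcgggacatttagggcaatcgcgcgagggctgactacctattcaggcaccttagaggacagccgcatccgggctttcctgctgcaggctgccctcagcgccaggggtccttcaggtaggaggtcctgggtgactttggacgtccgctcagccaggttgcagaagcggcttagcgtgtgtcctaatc
Its paralog *Ndufa4l2*, known from hypoxic cells, had 4, 5 and 5 reads in the CRE-, CD11b- and CD11b+ AM groups.

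A gene outside the name rule moved against *Ndufa4*. *AA467197*, chosen after its values were seen, is the mouse gene for Nmes1, a small protein of the *Ndufa4* family known from complex IV of inflamed tissue. It had 0.669, 0.926, 1.23, 0.095 and 0.607 CPM in CRE- AMs, and 18.8, 8.82, 15.9, 19.8 and 14.8 CPM in CD11b- AMs. In CD11b+ AMs it had 181, 103, 106, 133 and 128 CPM. The 3 groups did not overlap, and the log2 fold changes were 4.43 for CD11b- over CRE- AMs (SE 0.317, adjusted p = 3.75e-09), 7.49 for CD11b+ over CRE- AMs (SE 0.316, adjusted p = 2.64e-13) and 3.06 for CD11b+ over CD11b- AMs (SE 0.229, adjusted p = 4.5e-09). In the KC groups it had 4, 11 and 23 reads in all. In CD11b- AMs, where *AA467197* was higher than in CRE- AMs, the log2 fold change of *Ndufa4* was 0.07 (SE 0.0644, adjusted p = 0.465).

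Complex II was represented by all of its 4 subunits. *Sdhb*, the iron-sulfur subunit, had 192, 188, 187, 182 and 201 CPM in CRE- AMs and 193, 194, 180, 172 and 184 CPM in CD11b- AMs. In CD11b+ AMs it had 120, 117, 130, 105 and 117 CPM, all below the other AM samples, with log2 fold changes of -0.70 over CRE- AMs (SE 0.062, adjusted p = 1.34e-08) and -0.65 over CD11b- AMs (SE 0.062, adjusted p = 1.07e-07). The flavoprotein gene *Sdha* had a log2 fold change of -0.35 and the anchor gene *Sdhd* of -0.31 in CD11b+ over CRE- AMs (adjusted p of 1.56e-05 and 0.00183). *Sdhc*, the other anchor, had 135, 141, 138, 141 and 143 CPM in CD11b+ AMs, within the range of 128 to 142 in CRE- AMs apart from 1 sample (adjusted p = 0.733). The promoter of *Sdhb*, at chr4:140961021-140961320 on the plus strand (GRCm38.p6, RefSeq), is shown beside those of *Ndufa4* and *Atp5k* because its gene had the second largest fall among members with a mean above 10 CPM in every group, and it held 1 ETS core, in capitals, just after the start.
Sdhb: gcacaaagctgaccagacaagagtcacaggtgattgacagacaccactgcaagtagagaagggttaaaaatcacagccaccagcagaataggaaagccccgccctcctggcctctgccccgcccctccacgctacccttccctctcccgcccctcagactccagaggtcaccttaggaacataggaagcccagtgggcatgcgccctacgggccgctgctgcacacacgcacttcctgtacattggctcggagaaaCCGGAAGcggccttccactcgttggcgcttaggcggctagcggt

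**Figure D4:**
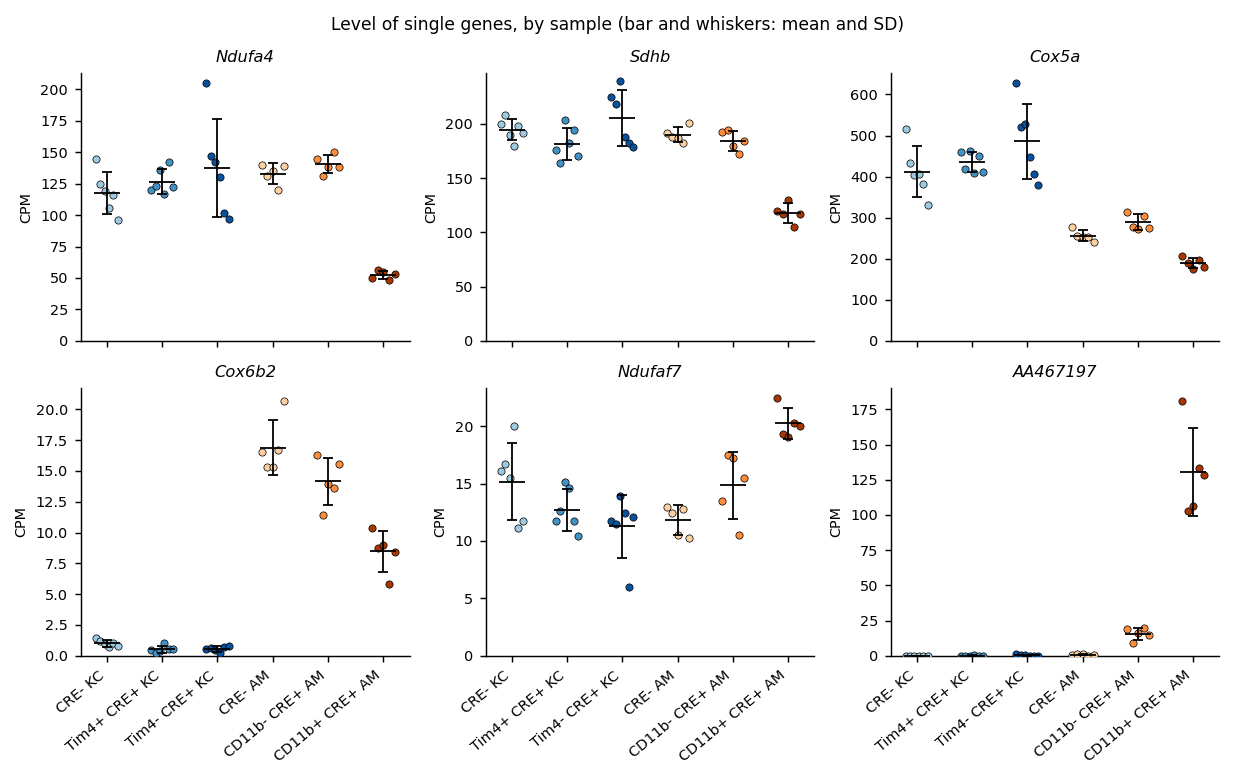
Levels in CPM (y axes) of *Ndufa4*, *Sdhb*, *Cox5a*, *Cox6b2*, *Ndufaf7* and *AA467197* in each sample (points) of the 6 groups (x axes), with bars and whiskers for the mean and SD. *Ndufa4* and *Sdhb* are lowest in CD11b+ AMs, between 48.6 and 56.6 and between 105 and 130 CPM, where *AA467197* is highest, between 103 and 181 CPM.

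In complex IV, 3 genes fell and 2 tissue forms rose in CD11b+ AMs. *Cox5a* had 207, 190, 175, 196 and 180 CPM in CD11b+ AMs, all below the CRE- samples given above and below the CD11b- samples, which had 314, 277, 273, 305 and 274 CPM (log2 fold changes -0.45 and -0.61, adjusted p of 5.73e-06 and 2.26e-07). *Cox6b2* had 16.3, 11.4, 13.9, 13.6 and 15.6 CPM in CD11b- AMs and 10.4, 8.73, 8.96, 5.85 and 8.4 CPM in CD11b+ AMs, with log2 fold changes of -1.01 over CRE- and -0.75 over CD11b- AMs (adjusted p of 2.37e-05 and 0.000854). The 2 complex IV genes that were higher in CD11b+ AMs were both at low levels and passed the filter only through the CD11b+ samples, where they were high, so that the filter favoured these calls. *Cox4i2* had 0 reads in CRE- AMs, 22 in CD11b- AMs and 138 in CD11b+ AMs over 5 samples each, which was at least 53.1-fold higher in CD11b+ than in CRE- AMs with 3 reads over the group as the floor, and 7.08-fold higher than in CD11b- AMs. *Cox6a2*, the heart and muscle form of another subunit, had 13, 30 and 254 reads, so that it was 22.5-fold higher in CD11b+ than in CRE- AMs. Their ubiquitous counterparts *Cox4i1*, at 428 against 404 CPM, and *Cox6a1*, at 240 against 219 CPM, did not pass the test (adjusted p of 0.399 and 0.208).

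The assembly factor *Ndufaf7*, a methyltransferase that acts on a complex I subunit, rose most among members above 10 CPM. It had 13, 12.4, 10.5, 12.8 and 10.3 CPM in CRE- AMs, 13.5, 17.5, 17.2, 10.5 and 15.5 CPM in CD11b- AMs and 22.5, 19.3, 19.1, 20.3 and 20.0 CPM in CD11b+ AMs. The CD11b+ samples lay above all other AM samples, with log2 fold changes of 0.76 over CRE- (SE 0.139, adjusted p = 0.000156) and 0.44 over CD11b- AMs (SE 0.138, adjusted p = 0.018). *Ndufaf3*, another complex I assembly factor, followed at 0.49 (adjusted p = 0.00163), then *Ndufa2* at 0.33 (adjusted p = 0.00146) and *Ndufb11* at 0.19 (adjusted p = 0.0488), and the last would not be higher with factors from total counts and lost its call in 8 of the 10 fits that left out 1 library each. Further members fell, among them *Ndufa10* (-0.44), *Ndufv1* (-0.38), *Uqcrfs1* (-0.42), *Uqcrh* (-0.37), *Cycs* (-0.30), *Atp5g1* (-0.41), *Atp5g3* (-0.40), *Atp5a1* (-0.39), *Atp5b* (-0.26) and *Atp5g2* (-0.25), with adjusted p of at most 0.0027. Both catalytic subunits and all 3 c subunit genes of complex V were thus lower in CD11b+ AMs.

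The CD11b+ and CD11b- CRE+ AMs, compared directly, differed in most members. Of 89 tested, 49 were lower in CD11b+ AMs, compared with 16.6% of all genes, and 3 were higher, compared with 19.8%, and the median log2 fold change was -0.22 for members and 0.02 for all genes. Lower genes were 4 of 4 in complex II, 8 of 9 in complex III, 12 of 15 in complex V, 17 of 35 in complex I and 5 of 15 in complex IV, besides 1 assembly factor, *Cycs* and *Ndufa4*, while the 3 higher ones were *Cox4i2* and *Cox6a2*, which the filter kept only through the CD11b+ samples, and *Ndufaf7*. The groups did not overlap for 33 of the lower and 3 of the higher members, compared with 10.7% and 15.1% of all genes. Summed over its genes, complex II was at 804 ± 20.0 CPM (SD, n = 5) in CD11b+, 1042 ± 26.2 in CD11b- and 1006 ± 34.2 in CRE- AMs, and complex V was at 3747 ± 93.9, 4656 ± 157 and 4335 ± 174 CPM. Samples of CD11b+ AMs were below the other AM samples for both sums. In this comparison rho of length with log2 fold change was 0.102, and the member median after subtraction of the length trend was -0.16.

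Markers of AMs and of other cells differed between these AM groups. The 10 AM markers summed to between 20186 and 30584 CPM in CRE- AMs, 23784 and 33113 in CD11b- AMs and 41726 and 56768 in CD11b+ AMs. The 7 general mac markers summed to medians of 31364, 31565 and 35203 CPM in the same order. The 6 neutrophil markers in the files summed to between 35.9 and 59.6 CPM in CRE- AMs, 805 and 2421 in CD11b- AMs and 8162 and 10462 in CD11b+ AMs, and all 6 were higher in CD11b+ than in CRE- AMs. *S100a8* and *S100a9*, which encode calprotectin, made up most of this sum, at 4438 ± 462 and 3662 ± 404 CPM (SD, n = 5) in CD11b+ AMs. *Mmp9* and *Retnlg*, which mature neutrophils express, were at 14.7 ± 4.95 and 2.83 ± 1.16 CPM there, and both had a median of 0 CPM in CRE- and in CD11b- AMs. The 6 monocyte markers, which include *Itgam*, the gene of the sorting marker CD11b, summed to between 7.84 and 12.7, 28.8 and 47.2, and 351 and 536 CPM, with all 6 higher in CD11b+ AMs. The lung epithelial markers summed to between 115 and 153, 504 and 600, and 1319 and 1697 CPM. This list includes *Epcam*, whose protein the paper found on AMs that had deleted *Zeb2*, so that its sum does not mark epithelial cells alone. Of 8 proliferation markers, 7 were lower in CD11b+ than in CD11b- AMs. The part of such cells or states in the members' changes was not tested.

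The 2 tissues were then set against each other by interaction terms. The Cre line and the sorting marker differed between the tissues, so that tissue, Cre line and sorted fraction cannot be told apart here. The mean change of the CRE+ KC groups less that of the CRE+ AM groups was above 0 for 14 members, compared with 10% of all genes, and below 0 for 2, compared with 9.52%, with a median of 0.17, or 0.06 after subtraction of the length trend. With KC replicates 1 to 4 alone, 11 were above 0 and 2 below, compared with 7.75% and 8.98% of all genes. The change in Tim4- KCs was also set against that in CD11b+ AMs, the groups sorted for the absence of Tim4 and the presence of CD11b. This difference of changes was above 0 for 37 of 89 members, compared with 14.8% of all genes, and below 0 for 2, compared with 15.7%. Its median was 0.32 for members and -0.01 for all genes. By complex, these 37 were 10 of 35 genes of complex I, 1 assembly factor, 3 of 4 of complex II, 5 of 9 of complex III, 5 of 15 of complex IV, 11 of 15 of complex V, *Ndufa4* and *Atp5sl*. After subtraction of the length trend the median was 0.18. With KC replicates 1 to 4 alone, 45 were above 0 and 2 below, compared with 13% and 14.8% of all genes.

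Of the members with a mean above 10 CPM in every group, *Ndufa4* had the largest difference by size between its changes in Tim4- KCs and in CD11b+ AMs. Its Tim4- KC change less its CD11b+ AM change was 1.56 on the log2 scale (SE 0.171, adjusted p = 1.14e-08). For the mean CRE+ change in KCs less that in AMs, the value was 0.79 (SE 0.147, adjusted p = 0.000125). *Sdhb* had a difference of 0.76 (SE 0.102, adjusted p = 4.4e-07), *Atp5g1* of 0.73 (adjusted p = 3.2e-06), *Uqcrh*, the hinge protein of complex III, of 0.77 (adjusted p = 0.000138) and *Atp5k* of 1.02 (adjusted p = 0.00508). In the opposite direction, *Ndufaf7* had a difference of -1.21 (SE 0.238, adjusted p = 0.000174). Between the mean CRE+ changes of the tissues its difference was -0.90, which was larger by size than that of *Ndufa4*. Its level was 11.3 ± 2.72 CPM in Tim4- KCs against 15.2 ± 3.33 in CRE- KCs (SD, n = 6), a change that did not pass on its own (adjusted p = 0.0791). *Cox4i2*, with 0 reads in CRE- and 138 in CD11b+ AMs, was the other member below 0 in both interactions, and no fold is given against a group at 0.

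**Figure D5:**
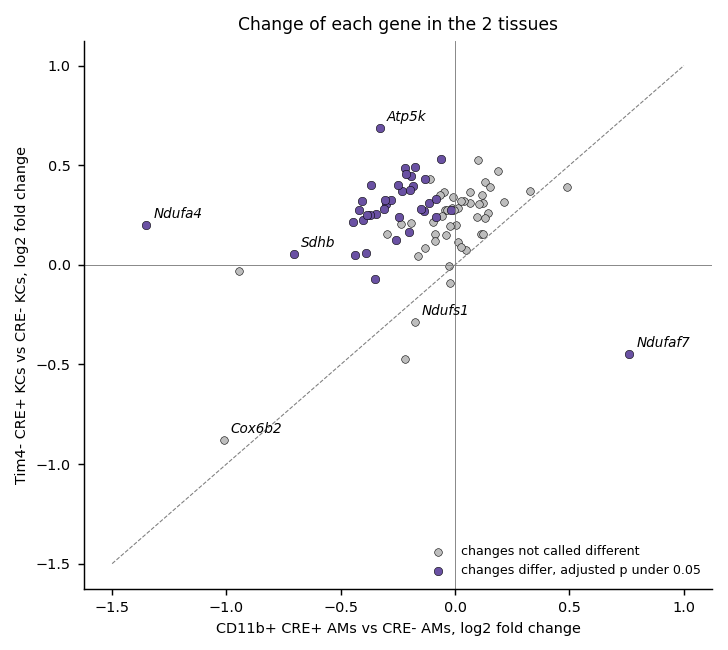
Log2 fold change of each member in CD11b+ CRE+ AMs over CRE- AMs (x axis) against that in Tim4- CRE+ KCs over CRE- KCs (y axis), with 1 point per member and in purple the members whose difference passed the test; *Cox4i2* and *Cox6a2* are left out. *Ndufa4* stands alone at the left, at -1.35 in AMs and 0.20 in KCs, and *Ndufaf7* at the lower right, at 0.76 and -0.45.

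Genes around the chain were read from lists of assembly factors, carriers and regulators that lie outside the name rule. Of 39 further assembly factors tested, 11 were higher and 7 lower in CRE- KCs over CRE- AMs (33.3% and 29.9% of all genes). In Tim4- over CRE- KCs 3 were higher (12.2% of all genes). In CD11b+ over CRE- AMs 2 were higher and 7 lower (22.8% and 20.5% of all genes). Of 77 mitochondrial ribosomal proteins, 38 were lower and 7 higher in CRE- KCs over CRE- AMs (29.9% and 33.3% of all genes). In CD11b+ over CRE- AMs 24 were lower and 4 higher (20.5% and 22.8% of all genes). Of 25 carriers and outer membrane proteins, 15 were lower and none higher in CRE- KCs over CRE- AMs (29.9% and 33.3% of all genes). In Tim4- over CRE- KCs 4 were higher and 1 lower (12.2% and 13.2% of all genes). Over CRE- AMs, 6 were higher and 1 lower in CD11b- AMs (13.3% and 12.4%), and 3 were higher and 9 lower in CD11b+ AMs (22.8% and 20.5%). Among 27 to 30 regulators tested per comparison, *Ppargc1b*, a coactivator known for driving mitochondrial genes, was at 13.9 CPM in CRE- KCs, 9.61 in Tim4+ and 7.43 in Tim4- KCs, and at 21.4 CPM in CRE- AMs, 15.9 in CD11b- and 9.80 in CD11b+ AMs. It was lower in Tim4- KCs (log2 fold change -0.91, adjusted p = 0.0116), where members rose, and in CD11b+ AMs (-1.14, adjusted p = 7.08e-05), where members fell. The related coactivator gene *Pprc1* (-1.14, adjusted p = 2.45e-06) and *Tfb2m*, a factor of mitochondrial transcription (-0.88), were also lower in CD11b+ AMs, while *Hif1a* (0.52) and *Gabpb1* (0.62), which encodes a subunit of an ETS factor, were higher. These genes were picked from the regulators tested, in a comparison where 22.8% of all genes were higher and 20.5% lower, and no pattern of the regulators as a set is read from them. Whether these regulators act on the members was not measured.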

How the data were processed

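Bulk RNA-seq of sorted KCs and AMs was measured in 33 samples, 6 per KC group and 5 per AM group. The labels gave the group and the number of each replicate. The authors trimmed reads (Trimmomatic), mapped them with TopHat2 and counted them per gene with HTSeq-count, and deposited raw counts per gene symbol, without normalization. The submitters' processing notes name FastQC 0.11.4, Trimmomatic 0.35, TopHat2 2.1.0 and SAMtools 0.1.18 and the build mm10. The tally rows of reads without a gene were left out. Total counts per sample bound the precision, and floors of 3 counts cover counting error only.

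Groups were tested on the counts with edgeR 4.0.16 in R 4.3.3 (TMM factors, filterByExpr, quasi-likelihood test, Benjamini-Hochberg adjustment over all genes tested), over 11 samples for CRE- KCs against CRE- AMs, 18 for KC, 15 for AM and 33 for interaction terms. A gene was called at an adjusted p under 0.05. The standard error was taken as the fold change divided by the square root of F. Scripts were tested on simulated data. Genes named were, per comparison, the called members of complex II, cytochrome c and subunits with isoforms, and up to 5 rises and 5 falls by size with a mean of at least 10 CPM in 1 group, beside the genes whose samples did not overlap and the highest members of each complex. Members and lists were chosen with earlier results of these data known. Positions and lengths are those of GENCODE M21 (GRCm38), where all members were found, 1 by an older symbol, and promoters from RefSeq (GRCm38.p6).

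Replicate numbers paired Tim4+ with Tim4- CRE+ KCs, whose same-numbered samples had correlated deviations in all 6 pairs (r from 0.12 to 0.24), and no other groups. As alternatives, limma-voom from limma 3.58.1 (the tool of the study's methods), DESeq2 1.42.0, RLE factors, no filter on low counts or at least 10 counts in every sample, an absolute log2 fold change above 1, only the groups compared, *Ddx3y* as a covariate, a replicate block, subsets of replicates, and leaving out each replicate in turn were run. Factors from total counts were applied to levels. Single-cell data and data of other laboratories used by the study were not analysed here.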

Additional observations from a re-analysis of the deposited data

Results flagged for a closer look

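Differences between the changes in the 2 tissues were flagged for 12 values. For the mean change of the CRE+ KC groups less that of the CRE+ AM groups, these were the log2 differences of *Ndufa4* (0.7913), *Atp5sl* (0.5468), *Uqcrh* (0.4626), *Uqcrfs1* (0.4274), *Cox8a* (0.4124) and *Ndufaf7* (-0.8978). For the change in Tim4- KCs less that in CD11b+ AMs, they were those of *Ndufa4* (1.556), *Atp5k* (1.021), *Uqcrh* (0.7723), *Sdhb* (0.7629), *Atp5g1* (0.7334) and *Ndufaf7* (-1.206). All passed edgeR's quasi-likelihood test of the interaction term with an adjusted p under 0.05.

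A sample far from the others of its group was flagged in 5 of 102 checks, and chance alone flags about 1 in 20. The summed level of complex V was 4382 CPM in CD11b- AM replicate 2, below the other CD11b- samples at 4693 to 4769 CPM. *Zeb2* was at 84.7 CPM in CD11b- AM replicate 3, *Cox6b2* at 20.7 CPM in CRE- AM replicate 5, *Atp5k* at 63.3 CPM in Tim4- KC replicate 1 and *Ndufaf7* at 6.01 CPM in Tim4- KC replicate 5. *Atp5k* in Tim4- KCs rests on the flagged library, as given above.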

How the results depend on the processing

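Of 2217 values of named genes under the alternatives, 2095 kept their direction and their side of the threshold, 122 kept the direction without passing, and 0 reversed. These genes had been chosen because they passed in the main fit, and many alternatives left out only 1 library, so that agreement was favoured in advance. Fits in which the filter dropped a gene were not counted. With an absolute log2 fold change above 1, members called fell to 2 in CRE- KCs over CRE- AMs, 0 in Tim4- KCs over CRE- KCs, 0 in Tim4- over Tim4+ KCs, 1 in CD11b- AMs, 4 in CD11b+ AMs, 3 in CD11b+ over CD11b- AMs, and 1 and 4 in the interactions of means and of Tim4- KCs with CD11b+ AMs. For Tim4- over Tim4+ KCs, DESeq2 called 5, limma-voom 3, replicates 1 to 4 gave 9 and replicates 5 and 6 gave 0. Replicates 5 and 6, with only 2 samples per group, also gave 0 in Tim4- over CRE- KCs. Replicates 5 and 6, KC replicates 1 to 4 against AMs and the block in fits of 2 groups were chosen after seeing the data. For Tim4+ over CRE- KCs, *Ddx3y* as a covariate, the fit of only those groups and the block each called 1. With total counts as factors, the summed levels in CD11b+ AMs were 2184 CPM for complex I, 718.2 for II, 986.4 for III, 1505 for IV and 3345 for V. The cause of these differences was not tested.

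With the replicate number as a block, 40 members were called in CRE- KCs over CRE- AMs, 41 in Tim4- KCs, 2 in Tim4- over Tim4+ KCs, 17 in CD11b- AMs, 33 in CD11b+ AMs, 54 in CD11b+ over CD11b- AMs (56 in the fit of only those groups) and 22 in the interaction of means. CD11b- and CD11b+ AMs shared only a number by the rule used, although 5 of 5 samples correlated best with their own number. Leaving out each replicate in turn, members called ranged from 37 to 54 in CRE- KCs over CRE- AMs, 0 to 0 in Tim4+ KCs, 19 to 45 in Tim4- KCs, 0 to 5 in Tim4- over Tim4+ KCs, 13 to 23 in CD11b- AMs, 28 to 33 in CD11b+ AMs, 43 to 56 in CD11b+ over CD11b- AMs, and 14 to 23 and 35 to 51 in the interactions. In Tim4- KCs the lowest count came without CRE- KC replicate 3 or Tim4- replicate 3 and the highest without Tim4- replicate 6, and for Tim4- over Tim4+ KCs the 0 came without Tim4+ replicate 2 and the 5 without Tim4- replicate 1. Of 100 calls of named genes, 15 were lost in at least 1 fit that left out a library. Depth limits *Cox4i2*, *Cox6a2* and *Cox7a1*, which had about 1 CPM or less in most groups.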
